A study of Mus musculus with 18 samples.

Results

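The 6 genes described here, Slc6a4, Kcnf1, Cckar, Penk, Tafa5 and Dynap, encode a transporter, a channel subunit, a receptor, secreted peptides and a membrane protein, and all had lower RNA levels in mouse embryonic fibroblasts (MEFs) cultured in a serum that confers resistance to ferroptosis. They were chosen by measured values of these same libraries, because their counts were noted to be lower in Rcm or after a move into it, and they are 6 of the 55487 genes in the count table. All 6 passed the filter on low counts, which left 15381 genes. Their levels in Scm, Rcm and the exchanges out of and into these media are therefore a description without a test. The exception is the comparison of R-Scm 24 h with R-Scm 12 h, which the choice of Slc6a4, Dynap, Tafa5, Kcnf1 and Penk did not use.

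The study compared sera for their effect on ferroptosis, an iron-dependent cell death driven by lipid peroxidation. Wild-type MEFs, a cell line of connective tissue origin, were kept in Scm, complete medium with a fetal bovine serum that left them sensitive (S-FBS), or in Rcm, complete medium with a serum that made them resistant (R-FBS). Other cultures were switched from Scm to Rcm (S-Rcm) or from Rcm to Scm (R-Scm) and harvested 12 h or 24 h later. Libraries were made from total RNA with an mRNA-seq kit, and each of the 6 groups held 3 of them. The groups shared the genotype and the cell line and differed in serum and in time after the switch, and no group here had a switch to fresh medium of the same kind, so that a change of serum and a change of medium cannot be told apart in the exchanges. Total counts ran from 14534906 to 20313715 per library. Of 11 fibroblast markers 10 reached 1 CPM (counts divided by the TMM-scaled library size, the usual CPM scale), with a summed level of 9480 to 13500 CPM per library.

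Apart from Dynap, these genes are best known from excitable and endocrine cells. Slc6a4 encodes the serotonin transporter, which returns serotonin into the cell with sodium and chloride. Kcnf1 encodes Kv5.1, a potassium channel subunit that is electrically silent alone and acts in heteromers with other subunits. Cckar encodes the receptor for cholecystokinin that couples to Gq and phospholipase C. Penk encodes proenkephalin, the precursor of opioid pentapeptides, and Tafa5 encodes a small secreted protein of the TAFA family. Dynap encodes a membrane protein that binds dynactin, the cofactor of the motor dynein.

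Promoters from RefSeq on GRCm38.p6 were matched by symbol for 3 of the 6 genes, Slc6a4, Tafa5 and Kcnf1. They are shown because Slc6a4 and Tafa5 had the most similar profiles of all pairs of these genes, whereas Kcnf1 followed another course. Each spans 250 bases before to 50 bases after the start of transcription, 5′ to 3′ on the strand of the gene. Capitals mark TGACG, the core of the cAMP response element, found on either strand.
Slc6a4 promoter, chr11:76998347-76998646, plus strand: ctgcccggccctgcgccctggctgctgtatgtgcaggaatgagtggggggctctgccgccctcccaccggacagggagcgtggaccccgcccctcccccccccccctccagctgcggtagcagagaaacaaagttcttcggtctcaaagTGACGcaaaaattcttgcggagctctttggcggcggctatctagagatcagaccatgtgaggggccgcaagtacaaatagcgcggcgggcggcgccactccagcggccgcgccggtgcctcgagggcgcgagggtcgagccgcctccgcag
Tafa5 promoter of the upstream start, chr15:87544049-87544348, plus strand: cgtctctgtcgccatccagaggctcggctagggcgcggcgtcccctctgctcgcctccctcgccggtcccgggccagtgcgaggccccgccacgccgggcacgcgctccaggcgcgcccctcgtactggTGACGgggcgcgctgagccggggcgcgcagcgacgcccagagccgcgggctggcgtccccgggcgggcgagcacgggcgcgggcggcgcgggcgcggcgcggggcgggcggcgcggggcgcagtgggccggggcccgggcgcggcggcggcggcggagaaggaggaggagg
Kcnf1 promoter, chr12:17176839-17177138, minus strand: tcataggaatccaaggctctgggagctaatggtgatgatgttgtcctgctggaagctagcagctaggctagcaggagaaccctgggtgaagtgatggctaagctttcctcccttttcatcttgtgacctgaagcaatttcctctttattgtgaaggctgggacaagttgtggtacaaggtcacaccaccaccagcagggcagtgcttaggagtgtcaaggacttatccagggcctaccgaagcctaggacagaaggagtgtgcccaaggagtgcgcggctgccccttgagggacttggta
The promoters of Slc6a4 and Tafa5 each held TGACG 1 time, at -101 and -121 from the start site, and that of Kcnf1 did not hold it. TGACG was present in 20.8% of the 32851 promoters of the same length. The full element TGACGTCA (1.79% of all promoters), which contains TGACG, the AP-1 site TGANTCA (7.81%), the E-box CACGTG (7.15%) and TATAAA (13.6%) were in none of the 3 windows. The GC box GGGCGG, present in 35.7% of all promoters, occurred 3 times for Slc6a4, 4 times for Tafa5 and 0 times for Kcnf1. GC content was 67.7% with 28 CpG dinucleotides for Slc6a4, 83.7% with 56 for Tafa5 and 53% with 3 for Kcnf1. A match of letters is a description of the window and not evidence of a bound factor. Tafa5 has a further annotated start, chr15:87624980-87625279, whose window held TGANTCA 1 time and TGACG 0 times. The match of TGACG in Tafa5 thus holds for the upstream start only.

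Per kilobase of merged exons, Dynap was by far the most abundant of these genes. In Scm it reached 345 ± 6.98 RPKM (SD, n = 3), followed by Penk at 6.23 ± 0.779, Tafa5 at 4.34 ± 0.202, Slc6a4 at 3.38 ± 0.255, Cckar at 2.17 ± 0.243 and Kcnf1 at 1.22 ± 0.201 RPKM. In Rcm Dynap fell to 149 ± 13.2 RPKM, Penk was at 1.77 ± 0.239 and the other genes lay between 0.418 and 0.814 RPKM. The low genes rest on few reads, for example 22 to 30 counts per library for Cckar in Rcm, so that counting error is part of their spread.

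**Figure D1:**
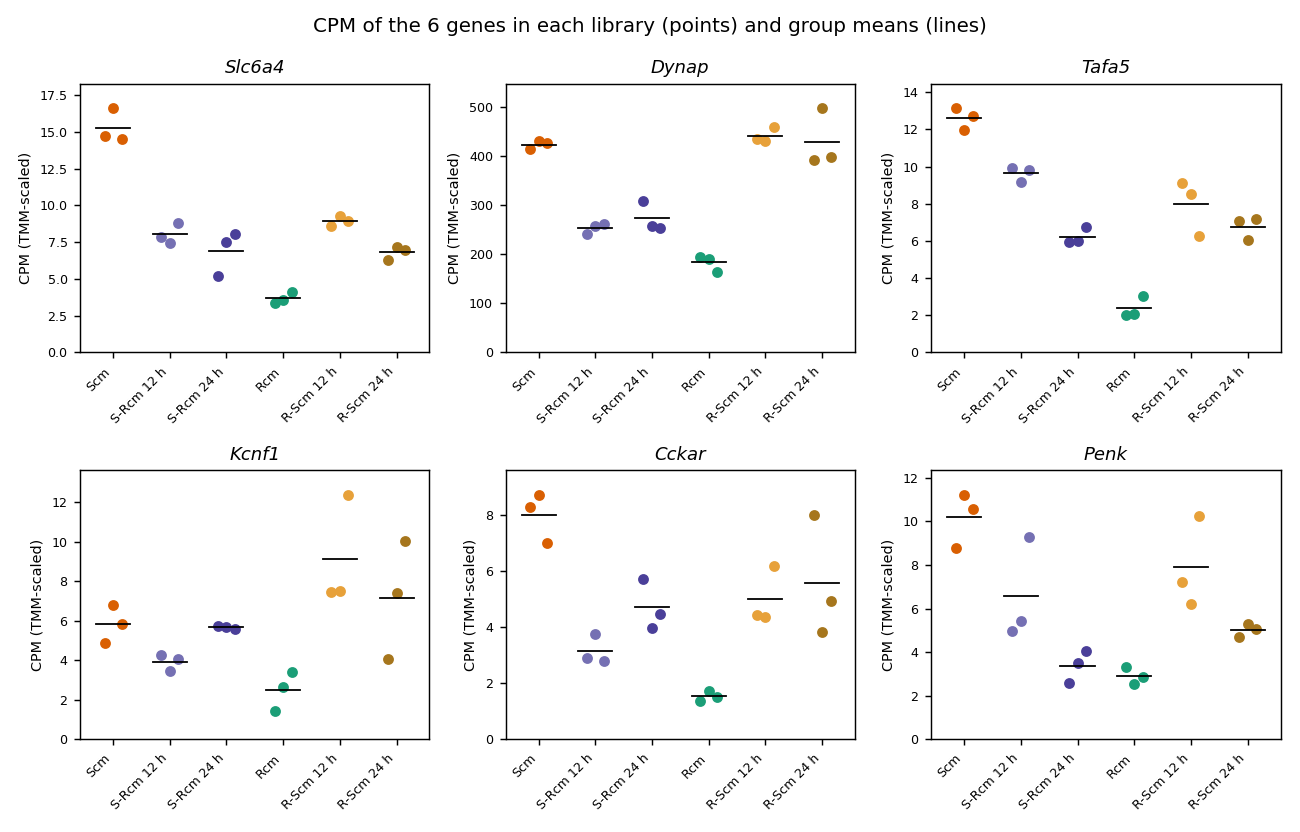
CPM (TMM-scaled, linear axis from 0) of each of the 6 genes in each library, by group. Points are libraries and lines are the means of 3 libraries. In every panel the 3 Rcm libraries lie below the 3 Scm libraries, for example 164 to 195 against 413 to 430 CPM for Dynap.

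Slc6a4, the serotonin transporter, lies on chromosome 11 (GRCm38 76998603 to 77032340, plus strand, 15 merged exons). Its level was 14.7, 16.6 and 14.6 CPM in the libraries of Scm and 3.36, 3.59 and 4.11 CPM in those of Rcm. After the switch to Rcm it was 7.88, 7.45 and 8.77 CPM at 12 h and 5.18, 7.54 and 8.09 CPM at 24 h. After the switch to Scm it was 8.58, 9.25 and 8.94 CPM at 12 h and 6.30, 7.19 and 6.98 CPM at 24 h. All libraries of the 4 exchange groups thus lay above every Rcm library and below every Scm library. Relative to Scm, Slc6a4 had a fitted log2 fold change of -2.05 ± 0.16 (SE) in Rcm, and of -0.93 ± 0.15 and -1.14 ± 0.15 at 12 h and 24 h after the move into Rcm. Relative to Rcm, that of Slc6a4 was 1.27 ± 0.16 and 0.88 ± 0.16 at 12 h and 24 h after the move into Scm. In the order of means, Scm stood highest and Rcm lowest, and the neighbours among the exchange groups overlapped.

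Kcnf1, the silent Kv subunit, is a gene of 1 exon on chromosome 12 (17172100 to 17176888, minus strand). It was at 4.86, 6.79 and 5.84 CPM in Scm and at 1.43, 2.66 and 3.40 CPM in Rcm. In S-Rcm 12 h it was at 4.27, 3.47 and 4.04 CPM, and in S-Rcm 24 h at 5.72, 5.69 and 5.56 CPM. In the opposite exchange its levels were 7.44, 7.51 and 12.4 CPM at 12 h and 4.06, 7.38 and 10.03 CPM at 24 h. Thus the S-Rcm 24 h libraries fell within the range of Scm, and the R-Scm 12 h libraries all exceeded Scm. Relative to Scm, Kcnf1 had a fitted log2 fold change of -1.21 ± 0.32 in Rcm, and of -0.57 ± 0.31 and -0.04 ± 0.31 at 12 h and 24 h after the move into Rcm. Relative to Rcm, that of Kcnf1 was 1.85 ± 0.32 and 1.51 ± 0.32 at 12 h and 24 h after the move into Scm. In the order of means both R-Scm groups stood above Scm, and neighbours overlapped down to S-Rcm 24 h, below which S-Rcm 12 h and then Rcm stood apart. The value for S-Rcm 24 h turned to 0.08 without Scm replicate 2.

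Cckar, the receptor of cholecystokinin, lies on chromosome 5 (53697776 to 53707705, minus strand, 5 merged exons). It was at 8.28, 8.73 and 7.002 CPM in Scm and at 1.37, 1.73 and 1.52 CPM in Rcm. It was at 2.90, 3.75 and 2.81 CPM in S-Rcm 12 h and at 5.72, 3.96 and 4.49 CPM in S-Rcm 24 h. In R-Scm it was at 4.43, 4.37 and 6.19 CPM at 12 h and at 8.004, 3.85 and 4.94 CPM at 24 h. The S-Rcm 12 h libraries lay below those of S-Rcm 24 h without overlap, and replicate 1 of R-Scm 24 h was the only exchange library within the range of Scm. Relative to Scm, Cckar had a fitted log2 fold change of -2.37 ± 0.26 in Rcm, and of -1.34 ± 0.25 and -0.76 ± 0.24 at 12 h and 24 h after the move into Rcm. Relative to Rcm, that of Cckar was 1.69 ± 0.27 and 1.86 ± 0.26 at 12 h and 24 h after the move into Scm. In the order of means Scm was followed by both R-Scm groups, then by S-Rcm 24 h and S-Rcm 12 h, with Rcm lowest, and neighbours overlapped except on either side of S-Rcm 12 h.

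Penk, the enkephalin precursor, lies on chromosome 4 (4133531 to 4138819, minus strand, 3 merged exons) and shares 233 exon bases with A830012C17Rik on the opposite strand, which held 0 to 3 counts per library. It was at 8.76, 11.2 and 10.6 CPM in Scm and at 3.30, 2.53 and 2.84 CPM in Rcm. In S-Rcm it was at 4.98, 5.43 and 9.30 CPM at 12 h and at 2.59, 3.52 and 4.04 CPM at 24 h. In R-Scm it was at 7.22, 6.22 and 10.2 CPM at 12 h and at 4.71, 5.30 and 5.04 CPM at 24 h. S-Rcm 12 h replicate 3 overlapped Scm, whereas the S-Rcm 24 h libraries overlapped those of Rcm. Relative to Scm, Penk had a fitted log2 fold change of -1.81 ± 0.25 in Rcm, and of -0.63 ± 0.24 and -1.59 ± 0.25 at 12 h and 24 h after the move into Rcm. Relative to Rcm, that of Penk was 1.44 ± 0.25 and 0.79 ± 0.25 at 12 h and 24 h after the move into Scm. Scm had the highest mean and Rcm the lowest, both 12 h groups stood above both 24 h groups, and among neighbours in this order only the pair of 24 h groups had no overlap.

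Tafa5, the secreted TAFA protein, lies on chromosome 15 (87544299 to 87759364, plus strand, 5 merged exons). It was at 13.2, 12.0 and 12.7 CPM in Scm and at 1.99, 2.06 and 3.05 CPM in Rcm, the largest fold difference of the 6 genes, 5.28-fold. In S-Rcm it was at 9.90, 9.18 and 9.83 CPM at 12 h and at 5.96, 5.97 and 6.76 CPM at 24 h. In R-Scm it was at 9.13, 8.53 and 6.25 CPM at 12 h and at 7.06, 6.05 and 7.18 CPM at 24 h. The exchange libraries all lay between those of Rcm and those of Scm, and the libraries of S-Rcm 24 h lay below those of S-Rcm 12 h. Relative to Scm, Tafa5 had a fitted log2 fold change of -2.40 ± 0.18 in Rcm, and of -0.39 ± 0.16 and -1.02 ± 0.17 at 12 h and 24 h after the move into Rcm. Relative to Rcm, that of Tafa5 was 1.74 ± 0.18 and 1.502 ± 0.179 at 12 h and 24 h after the move into Scm. In the order of means both R-Scm groups stood between S-Rcm 12 h above and S-Rcm 24 h below. Neighbours overlapped between the pair of R-Scm groups and between the later of them and S-Rcm 24 h, and not elsewhere.

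Dynap, the dynactin-binding membrane protein, was at 413, 430 and 425 CPM in Scm and at 195, 190 and 165 CPM in Rcm. In S-Rcm it was at 240, 257 and 261 CPM at 12 h and at 308, 256 and 254 CPM at 24 h. In R-Scm it was at 434, 429 and 458 CPM at 12 h and at 391, 497 and 398 CPM at 24 h. Both R-Scm groups overlapped Scm, and both S-Rcm groups lay between Rcm and Scm without overlap. Relative to Scm, Dynap had a fitted log2 fold change of -1.21 ± 0.10 in Rcm, and of -0.74 ± 0.10 and -0.63 ± 0.10 at 12 h and 24 h after the move into Rcm. Relative to Rcm, that of Dynap was 1.27 ± 0.10 and 1.23 ± 0.10 at 12 h and 24 h after the move into Scm. The means of both R-Scm groups stood above that of Scm, and among neighbours the only gaps without overlap were those between Scm and S-Rcm 24 h and between S-Rcm 12 h and Rcm.

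Across the whole table, a gene was called when its absolute log2 fold change exceeded 0.58 and its Benjamini-Hochberg adjusted p was under 0.05. In Rcm against Scm, 5 of the 6 genes were called lower, beside 0.631% of all genes tested that were called lower and 1.67% called higher, and this contrast was used to choose them. Kcnf1 missed the call and passed it without Rcm replicate 3, at a log2 fold change of -1.52. All 6 genes had every Rcm library below every Scm library, as did 11.2% of all genes tested. Their median change (log2) was -1.93, beside 0.01 for all genes. Among the markers of cell types, Stmn2, a microtubule regulator of neurons, averaged 61.7 ± 1.01 CPM in Scm against 31.0 ± 2.47 CPM in Rcm (log2 fold change -0.99 ± 0.10, adjusted p = 4.79e-05 by edgeR). Against Scm, Stmn2 was not called in S-Rcm 12 h (-0.20 ± 0.097, adjusted p = 0.366, edgeR) or 24 h (-0.32 ± 0.097, adjusted p = 0.246, edgeR). Against Rcm, Stmn2 was called in R-Scm 24 h (0.625 ± 0.098, adjusted p = 0.00803, edgeR) and not in R-Scm 12 h (0.405 ± 0.098, short of the fold threshold). The call in R-Scm 24 h held in 9 of 12 alternatives. It was lost on the 2 groups alone (0.626) and without Rcm replicate 3 (0.572) or R-Scm 24 h replicate 1 (0.502). Stmn2 was the only gene of 10 neuronal and neuroendocrine markers to reach a mean of 1 CPM, and Rbfox3 and Snap25 were at 0 in every library. The summed level of the 10 was 61.0 to 63.2 CPM in Scm and 29.5 to 33.4 CPM in Rcm. In the exchanges that sum was 51.6 to 57.9 and 47.8 to 53 CPM at 12 h and 24 h in Rcm, and 40.5 to 42.9 and 43.2 to 56.1 CPM in Scm. Of the markers of other cells, 0 of 7 epithelial and 0 of 5 endothelial genes reached a mean of 1 CPM, and 1 each did for macrophages and blood (of 6), skeletal muscle (of 5) and adipocytes (of 5). Several of these sums moved with the media as well. The fibroblast sum was 10100 to 10400 CPM in Scm and 12100 to 12600 CPM in Rcm, 9550 to 10500 and 10700 to 13400 CPM at 12 h and 24 h in S-Rcm, and 9480 to 10500 and 10000 to 13500 CPM in R-Scm. The adipocyte sum was 0.214 to 0.623 CPM in Scm, 1.02 to 2.46 CPM in Rcm and 0.728 to 1.49 CPM in the exchanges. The skeletal muscle sum was 1.11 to 2.03 CPM in Scm, Rcm and S-Rcm 12 h, 4.11 to 5.84 CPM in S-Rcm 24 h and 2.16 to 5.45 CPM in R-Scm. The sum for macrophages and blood was 3.55 to 5.33 CPM in R-Scm 12 h and 2.17 to 3.53 CPM in the other groups, and the epithelial and endothelial sums were at most 1.53 and 3.43 CPM. The part of such cells in these levels was not tested, and in bulk RNA fewer expressing cells and less RNA per cell cannot be told apart.

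In the switch from Scm to Rcm, 3 of the genes were called lower at 12 h (Slc6a4, Dynap and Cckar), beside 0.26% of all genes called lower and 0.598% called higher. At 24 h, 4 were called lower (Slc6a4, Dynap, Tafa5 and Penk), beside 0.117% lower and 0.221% higher. The rule used these libraries, and both counts share the Scm libraries with each other and with the steady comparison. In all, 5 of the 6 genes had no overlap with Scm at 12 h (every library lower in 12% of all genes), and 5 at 24 h (8.89%). The exceptions were Penk at 12 h and Kcnf1 at 24 h. Over the 6 genes the median change (log2) was -0.69 at 12 h and -0.89 at 24 h, beside 0.02 and 0.01 for all genes. The count at 24 h was 1 without Scm replicate 2 or replicate 3, 2 without Scm replicate 1 or S-Rcm 24 h replicate 1 or replicate 2, and 3 without S-Rcm 24 h replicate 3. The call of Cckar at 12 h was lost without Scm replicate 1 or 2 or without S-Rcm 12 h replicate 1 or 3, with log2 fold changes of -1.32, -1.28, -1.28 and -1.27.

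In the switch from Rcm to Scm, all 6 genes were called higher at 12 h, beside 1.51% of all genes called higher and 1.22% called lower. At 24 h, 5 were called higher, all but Penk, beside 0.182% higher and 0.195% lower. At both times every R-Scm library was above every Rcm library for all 6 genes, which was so for 11.7% of all genes at 12 h and 5.57% at 24 h. The 6 genes had a median change (log2) of 1.57 at 12 h and 1.36 at 24 h, beside -0.01 and -0.00134 for all genes. The Rcm libraries are shared by both counts and by the steady comparison that chose the genes. The count of 6 at 12 h stayed at 6 in every fit that left out a library. The count at 24 h was 3 without Rcm replicate 1 or replicate 2 and without R-Scm 24 h replicate 2 or replicate 3, where Slc6a4 and Kcnf1 lost the call, and 1 when edgeR was fitted to these groups alone, where Dynap was left.

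**Figure D2:**
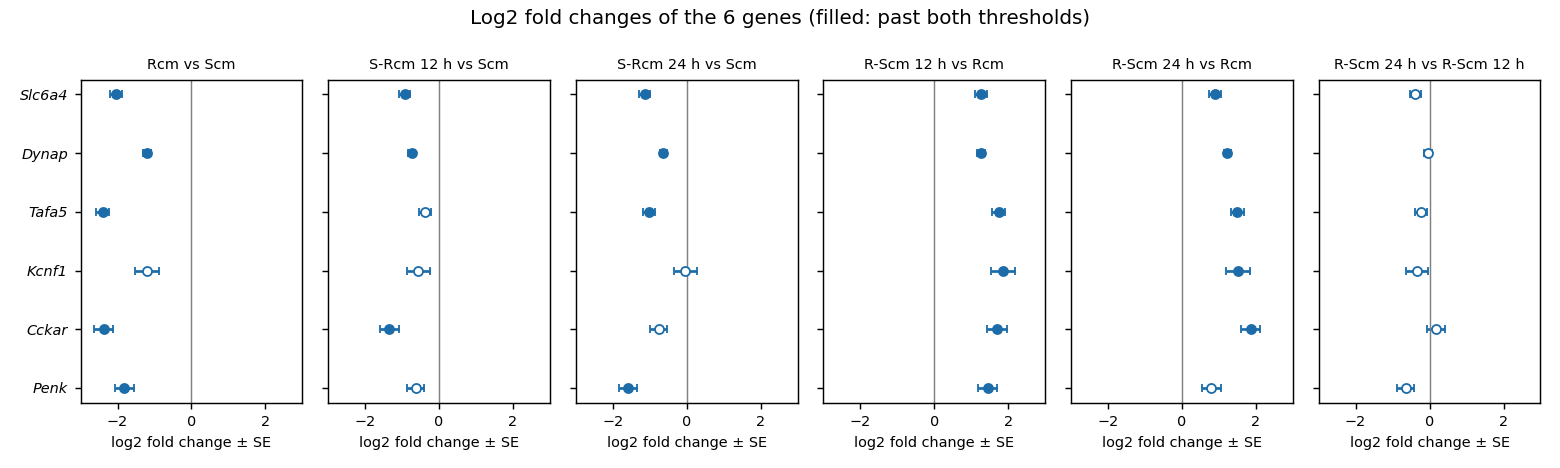
Log2 fold change (x axis) of each gene (y axis) in 6 comparisons, with bars of 1 SE from the fit to 18 libraries. Filled points passed both thresholds, and all of them lie below 0 in the 3 comparisons with Scm and above 0 in both comparisons with Rcm.

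The extent of each response was expressed as the share of the difference in mean log2 CPM between Scm and Rcm that an exchange covered. Moving into Rcm covered 45.5% and 57% of it for Slc6a4 at 12 h and 24 h, 61.4% and 52.7% for Dynap, and 16.1% and 42.2% for Tafa5. For Penk the shares were 37.8% and 88.5%, for Cckar 57.5% and 33%, and for Kcnf1 43.9% and 2.36%. Slc6a4, Tafa5 and Penk therefore had the larger share at 24 h, and Dynap, Cckar and Kcnf1 the larger share at 12 h. For Slc6a4 and Dynap the libraries of S-Rcm 12 h and S-Rcm 24 h overlapped, so that their larger share is not resolved. Moving into Scm covered 105% and 101% for Dynap and 148% and 117% for Kcnf1, and less than the whole for the other genes, from 43% to 78.2%. These shares carry the error of 3 group means, and their denominator chose the genes. Between the opposite exchanges, 24 h after the move the R-Scm libraries were above the S-Rcm libraries without overlap for Dynap, with 391 to 497 CPM against 254 to 308 CPM, and for Penk, with 4.71 to 5.30 CPM against 2.59 to 4.04 CPM, as they were for 4.9% of all genes tested. The libraries of Slc6a4, Tafa5, Kcnf1 and Cckar overlapped. These libraries were in part used to choose the genes.

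**Figure D3:**
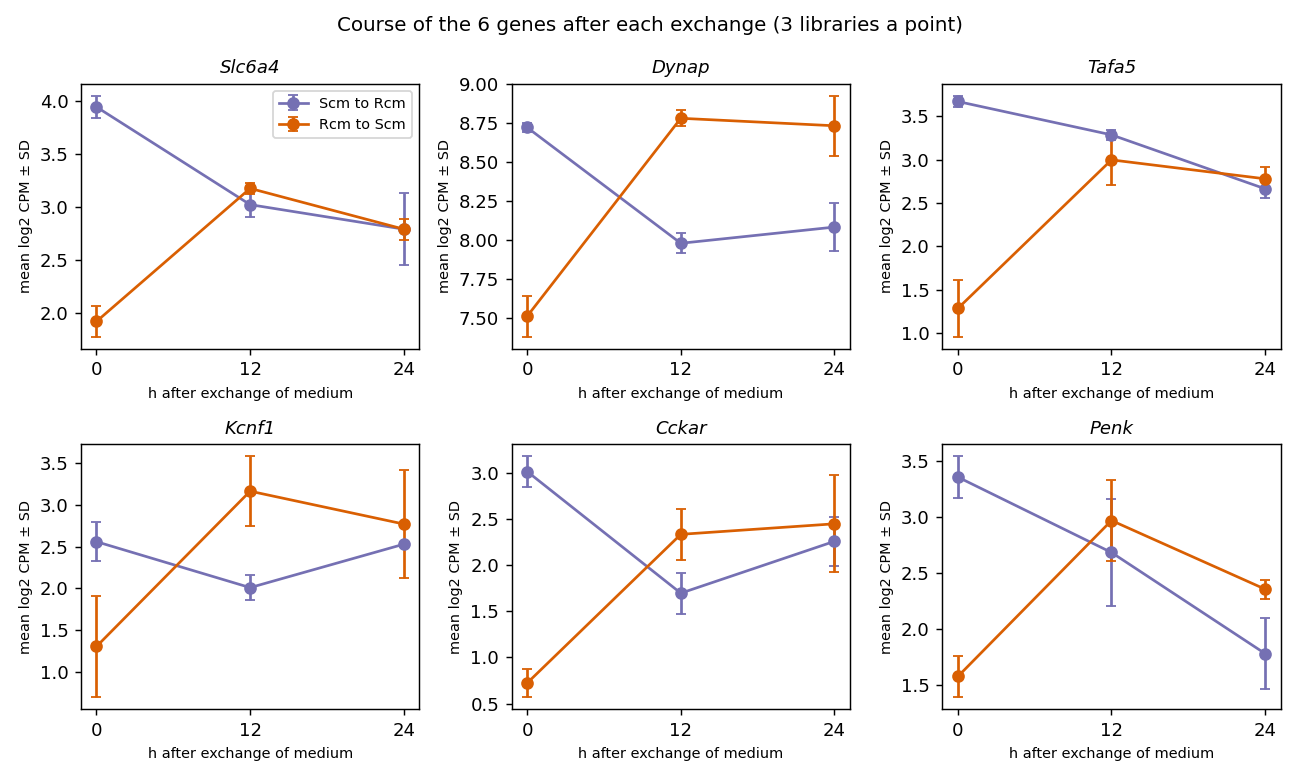
Mean log2 CPM (y axis, bars of 1 SD, 3 libraries a point) against hours after the exchange of medium (x axis) for each gene, from Scm to Rcm and from Rcm to Scm. At 24 h the mean after the move to Scm is above that after the move to Rcm for Dynap, Tafa5, Kcnf1, Cckar and Penk, and both are at 2.79 log2 CPM for Slc6a4.

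The later course in Scm, R-Scm 24 h against R-Scm 12 h, was tested for the 5 genes whose choice did not use it. None of the 5 was called by edgeR, and none of the 6 by DESeq2 or in any of 12 alternative fits, beside 0.442% of all genes called lower and 0.332% called higher. At an unadjusted p under 0.05 there were 2, Slc6a4 and Penk. Slc6a4 gave a log2 fold change of -0.39 ± 0.15 (95% interval -0.71 to -0.06, adjusted p = 0.269, edgeR), and Penk gave -0.65 ± 0.24 (-1.16 to -0.14, adjusted p = 0.231, edgeR). Both had every library at 24 h below every library at 12 h, which was so for 8.44% of all genes tested. Tafa5 gave -0.24 ± 0.17 (-0.59 to 0.11, adjusted p = 0.562, edgeR), Kcnf1 -0.34 ± 0.30 (-0.97 to 0.29, adjusted p = 0.654, edgeR) and Dynap -0.04 ± 0.10 (-0.25 to 0.17, adjusted p = 0.902, edgeR). Cckar, chosen in part on R-Scm 24 h, had a log2 fold change of 0.17 ± 0.24. For S-Rcm 24 h against S-Rcm 12 h, which holds libraries that chose the genes, the log2 fold changes were -0.95 ± 0.25 for Penk, -0.63 ± 0.17 for Tafa5, -0.21 ± 0.15 for Slc6a4, 0.11 ± 0.10 for Dynap, 0.53 ± 0.31 for Kcnf1 and 0.58 ± 0.25 for Cckar.

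The partners of these genes were followed in 10 lists with 168 other genes, of which 66 passed the filter. In Rcm against Scm 3 of the 66 were called higher and 2 lower, beside 1.67% and 0.631% of all genes tested. In S-Rcm 12 h against Scm 0 were called higher and 2 lower, beside 0.598% and 0.26% of all genes. In the same order, S-Rcm 24 h against Scm gave 1 and 1, beside 0.221% and 0.117%. R-Scm 12 h against Rcm gave 4 and 2, beside 1.51% and 1.22%. R-Scm 24 h against Rcm gave 1 and 0, beside 0.182% and 0.195%. R-Scm 24 h against R-Scm 12 h gave 2 and 1, beside 0.332% and 0.442%. Most of the listed genes either did not pass the filter or were not called. Whether the lists hold a larger share of called genes than the whole table was not tested.

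The gene of the ligand of Cckar was among those called. Cck, the precursor of cholecystokinin, averaged 1.64 ± 0.56 CPM in Scm (16 to 32 counts) against 0.399 ± 0.148 CPM in Rcm (4 to 11 counts), with no overlap. Cck was lower in Rcm than in Scm by 1.99 ± 0.39 on the log2 scale (adjusted p = 0.00959, edgeR). Against Rcm it rose in R-Scm 12 h by 1.97 ± 0.39 (adjusted p = 0.0074, edgeR), to 1.61 ± 0.333 CPM. The steady call was lost without Scm replicate 2 (-1.72) and without Rcm replicate 1 (-1.93) or replicate 2 (-1.78), and the rise at 12 h held in all 11 alternatives. In S-Rcm 12 h Cck was at 2.37 ± 0.849 CPM, with a log2 fold change of 0.53 ± 0.33 against Scm (adjusted p = 0.503, edgeR), while Cckar was at 3.15 ± 0.52 CPM against 8.004 ± 0.896. Gast, the precursor of gastrin, had 0 counts in all libraries, and Cckbr, the receptor that binds both peptides, had 0 to 2. Among the G proteins and phospholipases, Plcb4 was higher in Rcm by 1.64 ± 0.41 (adjusted p = 0.0379, edgeR), from 0.729 ± 0.32 to 2.27 ± 0.249 CPM, a call lost with a replicate block (1.64) and without Scm replicate 1 or 2 or Rcm replicate 1 or 2 (1.44, 1.49, 1.64 and 1.56). Plcb4 did not fall back after the move into Scm, with 2.76 ± 1.11 CPM at 12 h and 2.61 ± 0.48 CPM at 24 h, every library above Scm.

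Of the 13 opioid genes other than Penk, 3 passed the filter. Pdyn, Pomc, Pnoc and Oprm1 had 0 counts in all libraries, and Oprd1 and Oprk1, the receptors for enkephalins and dynorphins, at most 9 and 10 counts. Pcsk1, which cleaves such precursors, had 0 counts, and Pcsk2 at most 3. Cpe, the carboxypeptidase of peptide processing, was abundant at 524 CPM over all libraries and was not called in Rcm against Scm (-0.16 ± 0.07, adjusted p = 0.272, edgeR). Mme, the membrane protease that degrades enkephalins, rose in R-Scm 12 h to 19.0 ± 2.59 CPM from 10.5 ± 0.758 CPM in Rcm (log2 fold change 0.85 ± 0.17, adjusted p = 0.00737, edgeR). It held this call in all 12 alternatives and was at 12.6 ± 2.17 CPM in R-Scm 24 h.

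Among SLC6 transporters, 4 of the 19 others passed the filter. Slc6a6, the taurine transporter, and Slc6a8, the creatine transporter, were at 367 and 160 CPM over all libraries, and neither was called in Rcm against Scm (log2 fold change -0.03 ± 0.07, adjusted p = 0.87, and -0.55 ± 0.14, adjusted p = 0.037, edgeR, which is short of the fold threshold). Slc6a2 and Slc6a3, the noradrenaline and dopamine transporters, had at most 2 counts per library. Slc6a9, a glycine transporter, fell in R-Scm 12 h to 15.4 ± 1.43 CPM from 31.8 ± 3.58 CPM in Rcm (-1.05 ± 0.18, adjusted p = 0.00248, edgeR, called in all 12 alternatives). It rose again in R-Scm 24 h by 0.98 ± 0.18 against 12 h (adjusted p = 0.0108, edgeR), a call lost on the 2 groups alone (0.99) and without R-Scm 12 h replicate 1 (0.91) or R-Scm 24 h replicate 3 (0.80). Serotonin-synthesising Tph1 and Tph2 had at most 8 counts per library and Ddc had 0. Maoa, which degrades serotonin, was at 67.1 ± 3.21 CPM in Rcm and 67.0 ± 5.09 CPM in Scm. The receptor gene Htr1b was higher in Rcm, 7.14 ± 0.415 against 4.08 ± 0.259 CPM (0.81 ± 0.19, adjusted p = 0.026, edgeR), a call lost without any 1 Scm replicate or without Rcm replicate 1 or 2 (0.76 to 0.85). After the move into Scm it did not fall back, with 7.5 to 10.1 CPM at 12 h and 6.59 to 8.76 CPM at 24 h. All of these lay above the Scm libraries (3.81 to 4.33 CPM).

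Of 31 other voltage-gated potassium channel subunits 6 passed and 0 were called in Rcm against Scm by edgeR (2 at an unadjusted p under 0.05) or by DESeq2. Of the other TAFA genes, Tafa4 had 0 counts and Tafa1, Tafa2 and Tafa3 had at most 10. All 12 dynactin subunits and actin-related components passed, with means of 24.9 to 260 CPM over all libraries, and 0 were called by edgeR (1 at an unadjusted p under 0.05) or DESeq2 in Rcm against Scm, with a median change (log2) of -0.10.

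Of 20 other peptide hormone precursors 3 passed the filter, and of 24 CREB, AP-1 and activity-induced genes 23 did. Edn1, the endothelin precursor, rose in R-Scm 12 h from 15.6 ± 1.09 to 52.6 ± 17.3 CPM (log2 fold change 1.75 ± 0.17, adjusted p = 3.43e-05, edgeR, called in all 12 alternatives). Edn1 was also called higher in R-Scm 24 h against Rcm (0.96 ± 0.17, adjusted p = 0.0203, edgeR) and, after the opposite move, in S-Rcm 24 h against Scm (0.997 ± 0.17, adjusted p = 0.0167, edgeR), and lower in R-Scm 24 h against R-Scm 12 h (-0.80 ± 0.17, adjusted p = 0.0287, edgeR). These 3 calls held in 6, 6 and 7 of 12 alternatives, and the last had a log2 fold change of -0.50 without R-Scm 12 h replicate 3. Egr3, an immediate early transcription factor, fell in Rcm from 43.9 ± 3.94 to 12.4 ± 1.98 CPM (-1.83 ± 0.30, adjusted p = 0.0027, edgeR, called in all 12 alternatives). In R-Scm 12 h Egr3 was at 11, 10.3 and 23.5 CPM, with a log2 fold change against Rcm of 0.27 ± 0.30 (adjusted p = 0.711, edgeR) that turned to -0.21 without replicate 3. Its calls in S-Rcm 12 h (-1.44 ± 0.30, adjusted p = 0.0256, edgeR) and S-Rcm 24 h (-1.56 ± 0.30, adjusted p = 0.027, edgeR) against Scm held in 6 and 5 of 12 alternatives. At 12 h the call was lost without any 1 library (-1.52 to -1.30), and at 24 h it was lost with no filter or a replicate block (both -1.57) and without any 1 library other than S-Rcm 24 h replicate 1 (-1.63 to -1.41). Bdnf, a neurotrophin gene, rose in R-Scm 12 h by 1.13 ± 0.25 (adjusted p = 0.0135, edgeR), from 22.4 ± 1.64 CPM to 35.7, 33.8 and 78 CPM. The rise of Bdnf was 0.64 without R-Scm 12 h replicate 3, and the call was lost without Rcm replicate 3 (1.08) and on the 2 groups alone (1.15). Adm, the adrenomedullin precursor, was higher in Rcm by 1.77 ± 0.45 (adjusted p = 0.043, edgeR), and the call was lost with a replicate block (1.77) and without any 1 Scm replicate or Rcm replicate 1 or 2 (1.56 to 2.12). Every R-Scm library of Adm, at 1.34 to 5.08 CPM at 12 h and 1.53 to 1.83 CPM at 24 h, also lay above Scm (0.412 to 0.855 CPM). Per1, a clock gene that serum induces, had log2 fold changes of -0.63 ± 0.14 in S-Rcm 12 h against Scm (adjusted p = 0.0376, edgeR), -0.59 ± 0.14 in R-Scm 12 h against Rcm (adjusted p = 0.0261, edgeR), and 0.65 ± 0.14 in R-Scm 24 h against R-Scm 12 h (adjusted p = 0.0351, edgeR). The calls of Per1 held in 6, 6 and 8 of 12 alternatives. The first was lost without any 1 library (-0.68 to -0.57), the second with no filter, with DESeq2 and on the 2 groups alone (all -0.58) and without Rcm replicate 1 or 3 or R-Scm 12 h replicate 3 (-0.57 to -0.43), and the third on the 2 groups alone (0.66) and without R-Scm 12 h replicate 1 or 3 or R-Scm 24 h replicate 3 (0.49 to 0.71).

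**Figure D4:**
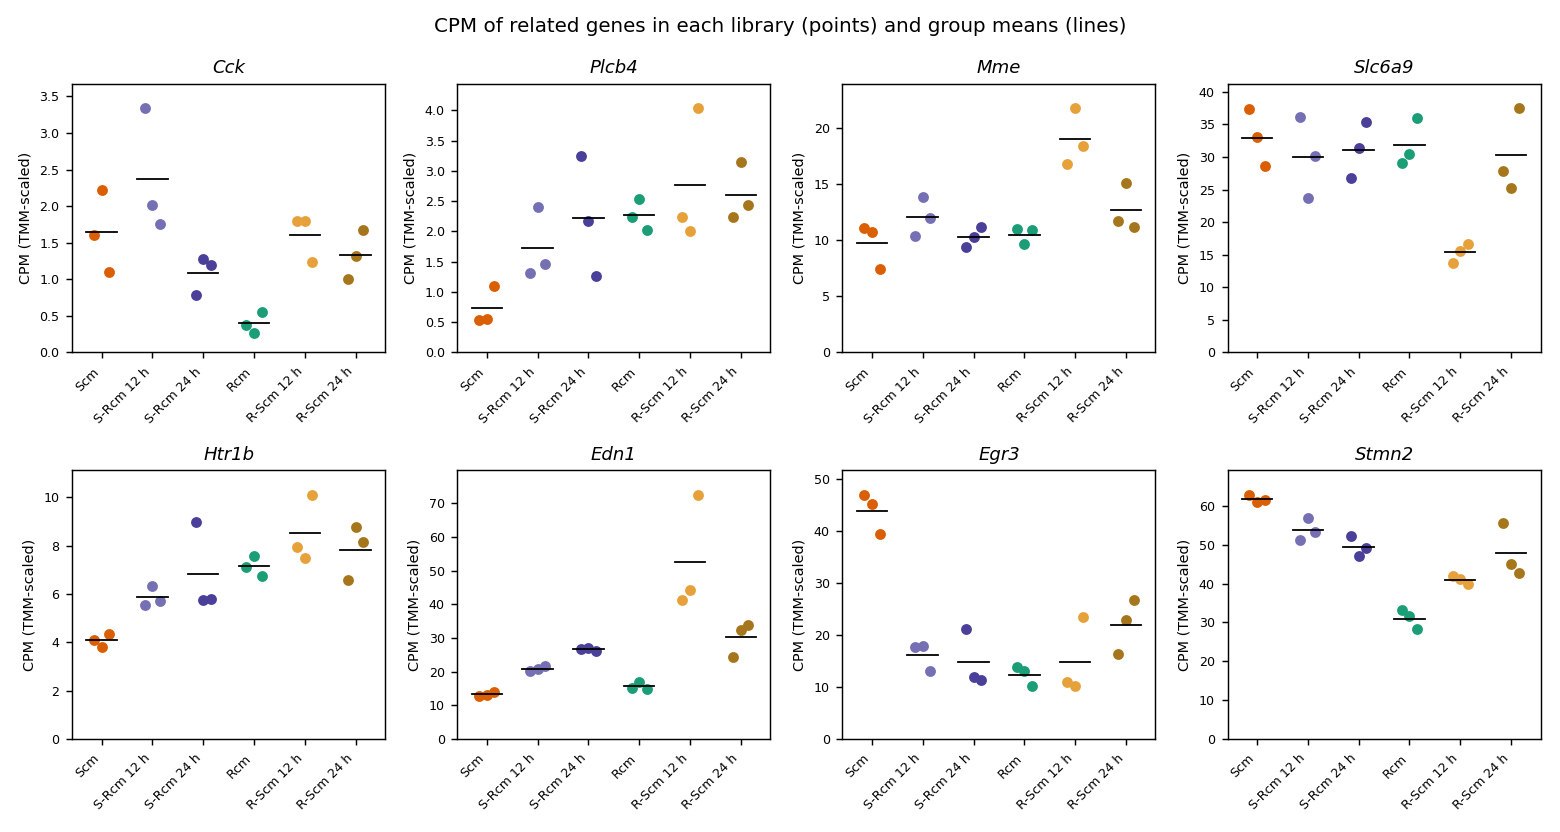
CPM (TMM-scaled, linear axes from 0) in each library, by group, of Cck, Plcb4, Mme, Slc6a9, Htr1b, Edn1 and Egr3 and of the neuronal marker Stmn2. Points are libraries and lines are group means. Cck is lowest in Rcm, Egr3 is high in Scm alone, at 43.9 CPM, and Slc6a9 is low in R-Scm 12 h alone, at 15.4 CPM.

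Across the 18 libraries the 6 genes resembled each other to different degrees. The Pearson r of log2 CPM was highest for Slc6a4 and Tafa5, 0.911, and lowest for Kcnf1 and Penk, 0.499. The libraries share 6 group means and the genes were chosen on them, so that these values are a description. Outside the 6, Hey1, a Notch target, was most like Slc6a4 (r = 0.907), ahead of Fgf13 (0.9) and Ngef (0.879), and was also among the 3 closest to Tafa5 (0.892), and it averaged 8.90 ± 0.934 CPM in Scm against 2.08 ± 0.236 CPM in Rcm. Id4 and Id2, inhibitors of helix-loop-helix factors, were among the closest to Dynap (0.941 and 0.895), and Id4 averaged 21.2 ± 0.931 CPM in Scm, 9.48 ± 1.57 CPM in Rcm and 28.0 ± 0.41 CPM in R-Scm 12 h. Tafa5 was also near Slc16a13 (0.904) and Notum (0.899), which encodes an enzyme that inactivates Wnt proteins. Kcnf1 was nearest to Rras2 (0.923) and Fhl2 (0.914). Cckar was nearest to Sytl2 (0.879), and Penk to Ramp3 (0.842), a subunit of receptors for adrenomedullin. The ranking covered 13528 genes whose mean reached 1 CPM.

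**Figure D5:**
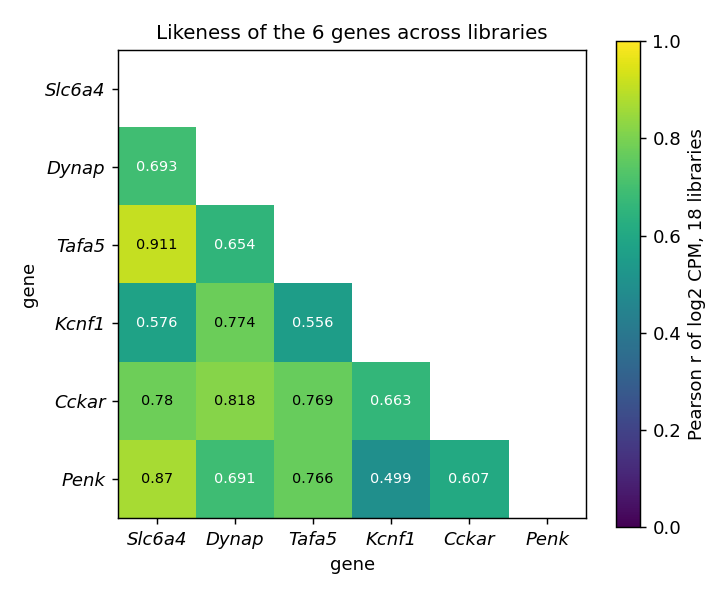
Pearson r of log2 CPM over 18 libraries for each pair of the 6 genes (both axes list genes, colour scale from 0 to 1). The values run from 0.499 for Kcnf1 and Penk to 0.911 for Slc6a4 and Tafa5.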

How the data were processed

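RNA-seq of MEFs gave 18 libraries in 6 groups of 3, grouped by their titles. The authors used the RNeasy mini kit for RNA, sequenced paired-end reads on a NovaSeq, aligned them to GRCm38 with HISAT2 and deposited raw counts per gene. The counting tool and its use of strand are not given in the sources used here. The study describes its cell culture experiments in general as independently replicated, without an account of these libraries, so that p-values measure the spread between them, which may be partly technical.

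Counts were analysed with edgeR 4.0.16 in R 4.3.3: filterByExpr (15381 of 55487 genes kept), TMM scaling, and a robust quasi-likelihood fit to all 18 libraries (12 residual degrees of freedom, common dispersion 0.0298), with Benjamini-Hochberg adjustment over all genes tested. A call needed a log2 fold change beyond ±0.58 and an adjusted p under 0.05. Log2 CPM used a prior count of 2. Exon lengths came from GENCODE annotation of GRCm38. On simulated data for Rcm against Scm (15194 genes), 79% of changes of 1 and 95% of changes of 2 (log2) were called. The changes were placed only in genes above a floor of mean counts, so that these rates do not cover the genes with the fewest counts. DESeq2 1.42.0, other scalings and filters, a replicate block, the 2 groups alone and leaving out each library were alternatives, as was Spearman's rho. Figures used Python 3.11.15 and matplotlib 3.10.9.

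The 6 genes and all lists were chosen with earlier results of these data known. Named list genes were the 3 largest changes per list and comparison among those called whose mean reached 1 CPM, and relatives of the 6 genes. Of the lists, 1 is not reported here on its own. Columns left out numbered 0. Replicates differed by more than counting noise.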

Additional observations from a re-analysis of the deposited data

How the results depend on the processing

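Of the counts of the 6 genes called, edgeR on the 2 groups alone gave 1 in R-Scm 24 h against Rcm, and other settings with all libraries stayed within 1.5 times the count given. Leaving out 1 library gave 1 to 3 genes in S-Rcm 24 h against Scm and 3 to 5 in R-Scm 24 h against Rcm. The 66 list genes varied more. In Rcm against Scm the number called was 2 with at least 10 counts in every library, 3 with a replicate block and 9 on the 2 groups alone, and 1 to 7 without 1 library (1 without Rcm replicate 1). In S-Rcm 12 h against Scm it was 4 on the 2 groups alone and 0 whichever library was left out. In S-Rcm 24 h against Scm it was 1 without the filter, 4 with DESeq2, 1 with a replicate block, 4 on the 2 groups alone and 0 to 1 without 1 library. In R-Scm 12 h against Rcm it was 4 to 7 without 1 library. In R-Scm 24 h against Rcm it was 2 with DESeq2, 0 on the 2 groups alone and 0 to 8 without 1 library (8 without R-Scm 24 h replicate 1). In R-Scm 24 h against R-Scm 12 h it was 0 on the 2 groups alone and 0 to 4 without 1 library. The causes were not tested. In none of 11 comparisons did all same-numbered pairs correlate above 0.1 in their deviations from the group means, although they were 0.085, 0.2 and 0.39 in R-Scm 24 h against Rcm. The numbers were taken from the titles, and in 3 groups (S-Rcm 24 h and both R-Scm groups) the columns are numbered 1, 3 and 4, by which the latter pairs gave 0.084 and -0.25. The libraries were therefore not treated as paired. The replicate block moved Kcnf1 in Rcm against Scm past the threshold (-1.26), as did DESeq2 (-1.22).

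The sign turned for Kcnf1 in S-Rcm 24 h against Scm (0.0842 without Scm replicate 2, range -0.158 to 0.0842), for Dynap in R-Scm 24 h against R-Scm 12 h (0.0219 without R-Scm 24 h replicate 1 and 0.0204 without replicate 3, range -0.16 to 0.0219) and for Cckar there (-0.179 without R-Scm 24 h replicate 1, range -0.179 to 0.372). Spearman's rho was 0.732 for Fgf13 and 0.721 for Ngef with Slc6a4, and 0.794 for Id2 with Dynap, below Pearson's r of 0.9, 0.879 and 0.895. Few counts per library lay behind Cckar (22 to 30 in Rcm), Cck (4 to 11 in Rcm), Adm (6 to 16 in Scm) and Plcb4 (8 to 16 in Scm), which limits their precision.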

Other observations

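Stmn2, the neuronal marker detected in the bulk RNA of these cultures, was at 41.0 ± 0.985 CPM in R-Scm 12 h and 47.8 ± 6.88 CPM in R-Scm 24 h, so that it lay between its levels in Rcm and Scm.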
